A study of Mus musculus with 52 samples.

Results

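Dimethylnitrosamine (DMN) was followed in mouse liver after a single intraperitoneal injection of 5 mg/kg, sampled 4 h, 20 h, 14 days or 28 days later, with 1 array for the treated mice and 1 for their own saline control at each time. These 8 arrays, 4 treated and 4 control, were all of those carrying DMN in their titles, out of 52 arrays in the series. Each array measured liver RNA pooled from 5 male B6C3F1 mice, 9 weeks old at dosing, so that a group was a single pool at a single time and all groups shared strain, sex and organ. The 12 other saline controls, 3 at each time (the controls of N-ethyl-N-nitrosourea, of dipropylnitrosamine and of the ethanol and phenobarbital set), gave the spread between untreated pools.

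DMN is a small nitrosamine that does not react with DNA until it is oxidised, chiefly by Cyp2e1, a cytochrome P450 concentrated in the hepatocytes around the central vein. The methylating species that forms adds methyl groups to guanine, and Mgmt is the protein that removes the mutagenic O6 adduct while base excision repair acts on methylated bases at other positions and mismatch repair on the mispairs that the O6 adduct leaves. Damaged DNA stabilises the transcription factor p53, whose targets halt the cell cycle, trigger apoptosis, repair DNA and, through Mdm2, switch p53 off again. The question put to these arrays was how the transcript levels of such genes stood against saline at each time, and for how long.

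Signals are given on a log2 scale after each array was set to a common median, with a floor at 5.02 below which weak signals were not told apart. A log2 ratio is the signal of the DMN pool minus that of its own control at the same time, so that 1 is a doubling and −1 a halving. At each time the 4 saline pools make 6 pairs, and a ratio larger in size than the differences of all 6 is called outside the saline pairs. With no replicate pools of DMN, the test (limma) took its error from the 12 other saline pools, assumed the DMN pools to vary like them, and adjusted p over 16795 probe sets with a threshold of 0.05. Its p-values measure only the spread between these pools, which may be technical in part.

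The 3 p53 targets that passed the test at 20 h were Cdkn1a, Phlda3 and Ccng1, and the stretches of DNA before their start sites are shown first, with that of Ckap2, a p53 target outside the saline pairs at all 4 times. The 250 bases upstream of the start are printed from RefSeq on mouse GRCm38.p6, each read 5′ to 3′ on the gene's strand, and capitals mark a match to the p53 consensus. That consensus has 20 bases in 2 adjacent 10-base half-sites and is its own reverse complement, so both strands were covered. The C and G of each half-site's core were required and up to 3 mismatches were allowed elsewhere. The Cdkn1a window (chr17:29090729-29090978, + strand) held a match with 1 mismatch from −51 to −32, counted from the start site used for that window. The gene had 2 windows, and this one is shown because it alone held a match. Which start the measured transcript used was not tested. The Ccng1 window (chr11:40755287-40755536, − strand) held a match with 1 mismatch from −195 to −176. The Ckap2 window (chr8:22185820-22186069, − strand) held a match with 2 mismatches from −203 to −184. The Phlda3 window (chr1:135765835-135766084, + strand) held none, which says only that these letters were not in this window.
Cdkn1a: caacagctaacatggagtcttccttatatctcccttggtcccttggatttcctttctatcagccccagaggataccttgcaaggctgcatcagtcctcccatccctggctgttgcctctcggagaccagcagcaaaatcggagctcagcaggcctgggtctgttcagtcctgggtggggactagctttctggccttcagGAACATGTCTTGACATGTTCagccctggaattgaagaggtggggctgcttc
Ccng1: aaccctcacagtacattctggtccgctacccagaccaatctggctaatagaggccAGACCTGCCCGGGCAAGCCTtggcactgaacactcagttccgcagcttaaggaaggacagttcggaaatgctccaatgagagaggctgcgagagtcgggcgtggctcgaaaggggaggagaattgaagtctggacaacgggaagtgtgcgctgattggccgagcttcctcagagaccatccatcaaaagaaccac
Ckap2: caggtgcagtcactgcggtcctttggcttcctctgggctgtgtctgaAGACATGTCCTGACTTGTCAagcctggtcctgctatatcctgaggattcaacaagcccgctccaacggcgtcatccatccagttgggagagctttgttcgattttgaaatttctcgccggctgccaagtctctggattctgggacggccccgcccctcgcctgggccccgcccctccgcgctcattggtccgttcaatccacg
Phlda3: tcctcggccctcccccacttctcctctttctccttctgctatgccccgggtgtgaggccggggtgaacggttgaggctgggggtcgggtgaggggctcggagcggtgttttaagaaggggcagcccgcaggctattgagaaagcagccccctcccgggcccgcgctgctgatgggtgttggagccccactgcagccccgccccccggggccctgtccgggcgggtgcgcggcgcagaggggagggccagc

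Of the 27 p53 targets measured, 21 had a RefSeq window running from 250 bases before to 50 bases after the start, and 7 of these (33.3%) held a match, against 441 of all 27025 genes with a window (1.63%) and 453 of 32851 windows of that length (1.38%). The 7 were Aen, Bbc3, Ccng1, Cd80, Cdkn1a, Ckap2 and Sesn1. A match did not separate the targets by their response. Among the targets at least 2-fold higher at 20 h, 3 of the 9 with a window held a match, and among the remaining targets 4 of 12 did, 33.3% in each case.

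Over the whole array DMN stood closer to its own control than saline pools of different sets stood to each other. Of 18349 probe sets kept, the number differing at least 2-fold from the own control was 425 at 4 h, then 397, 508 and 394 at the later times. Pairs of saline pools of the same time differed at least 2-fold in 516 to 720, 457 to 703, 552 to 1360 and 421 to 628 probe sets, so that the DMN count lay under every saline pair at each time. The SD of the log2 ratios was 0.383, 0.378, 0.40 and 0.365 for DMN and 0.403 to 0.448, 0.388 to 0.451, 0.408 to 0.544 and 0.370 to 0.440 for the saline pairs. Every saline pair joins pools of different experimental sets, whereas DMN and its own control belong to 1 set. Against the saline pools of the other sets the SD for DMN was 0.428 to 0.468, 0.434 to 0.473, 0.437 to 0.483 and 0.391 to 0.403, not below the range of the saline pairs. Median signals before scaling were 64.4 to 86.7 on 7 of the 8 arrays and 205 on the 14-day own control, the highest of all 52. In the brightest of 4 equal groups of probe sets the median log2 ratio was 0.11, 0.06, −0.17 and −0.04 at the 4 times, and at 14 days 57.3% of 10755 genes were lower, beside which the 14-day counts given here are to be read. The 3′ to 5′ log2 ratio of the Gapdh control probe sets, a sign of RNA length, ran from −0.26 to 0.28, with the 28-day DMN pool the highest of the 8. The hepatocyte markers, albumin among them, had summed signals of 86600 to 122000 in the DMN pools and median log2 ratios between −0.11 and 0.02.

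**Figure D1:**
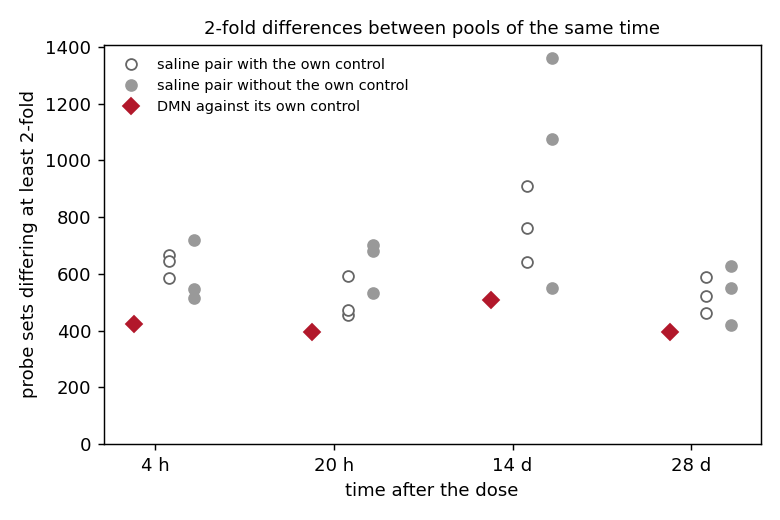
Number of probe sets differing at least 2-fold (vertical axis) at each time after dosing (horizontal axis), for DMN against its own control (diamonds) and for each of the 6 pairs of saline pools of that time (circles). The diamonds, at 425, 397, 508 and 394, lie below all the circles of their time.

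At 20 h 6 of 16795 probe sets (0.0357%) passed the test, and they stood for 4 genes. Cdkn1a, which encodes the cyclin-dependent kinase inhibitor p21 and arrests the cell cycle, rose 25.9-fold. Phlda3, a repressor of Akt signalling, rose 9.60-fold, and Ccng1, which encodes cyclin G1, rose 5.72-fold on its brightest probe set. Ighm, the heavy chain of immunoglobulin M, fell at least 6.51-fold. In whole liver, fewer cells of a type and less RNA per cell cannot be told apart. No probe set passed at 4 h, 14 days or 28 days, where 510 (3.04%), 612 (3.64%) and 412 (2.45%) had an unadjusted p under 0.05, as did 482 (2.87%) at 20 h. No difference between times passed either (unadjusted 393, or 2.34%, for 20 h minus 4 h, 680, or 4.05%, for late minus early (the mean of 14 and 28 days minus that of 4 h and 20 h) and 447, or 2.66%, for 28 days minus 14 days), nor did the mean over the 4 times (646 unadjusted, 3.85%).

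Cdkn1a had log2 signals of 9.77, 10.68, 5.67 and 7.12 in the DMN pools at 4 h, 20 h, 14 days and 28 days, and of 7.75, 5.98, 5.17 and 5.46 in the own controls. The other saline pools lay at 5.70 to 6.34, 5.02 to 6.19, 5.02 to 5.66 and 5.26 to 6.19. The DMN pool was the highest of the 5 arrays at every time, by a wide gap at 4 h and 20 h and by almost nothing at 14 days. The log2 ratio at 20 h was 4.69 (SE 0.59, limma adjusted p = 0.00455), with Cdkn1a above the floor in 9 of the 12 other saline pools. With the floor at the 20th percentile the ratio was again 4.69 but did not pass, and Cdkn1a was not tested where all 12 had to be above the floor. At 4 h the own control itself stood above the other saline pools, and the ratio of 2.02 was within the largest saline pair difference of 2.05. A second, dimmer probe set of Cdkn1a gave 1.16, 1.75, 0.00 and 0.03 and was too dim for the test, which asked for a signal over the floor in at least 4 of the other saline pools.

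Phlda3 had log2 signals of 8.77, 9.63, 7.06 and 7.49 after DMN and of 7.90, 6.36, 6.64 and 7.02 in the own controls. The other saline pools lay at 6.67 to 7.09, 6.66 to 7.21, 6.99 to 7.20 and 6.86 to 7.06. Groups were apart at 4 h, 20 h and 28 days, and at 14 days the DMN pool lay among the saline pools. The log2 ratio at 20 h was 3.26 (SE 0.32, limma adjusted p = 0.00135). The own control at 4 h was again high, and the 4 h ratio of 0.87 lay within the pairs, whose largest was 1.23.

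Ccng1 was measured by 3 probe sets, and all 3 passed at 20 h, with log2 ratios of 2.52 (SE 0.27, limma adjusted p = 0.00144), 2.83 (SE 0.31, adjusted p = 0.00159) and 3.05 (SE 0.46, adjusted p = 0.0269). The brightest had log2 signals of 9.88, 10.51, 8.33 and 8.40 after DMN and of 8.67, 7.99, 7.95 and 8.34 in the own controls. Its other saline pools lay at 7.99 to 8.14, 7.97 to 8.33, 7.84 to 8.11 and 7.88 to 8.24. DMN was above all saline pools at each time, though at 28 days by less than the saline pools differed among themselves. The ratio at 4 h was 1.22 (adjusted p = 0.811), outside the saline pairs. Late minus early was −1.65 for Ccng1 (adjusted p = 0.378) and −1.62 for Phlda3 (adjusted p = 0.70), so the difference between early and late times did not pass for either.

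**Figure D2:**
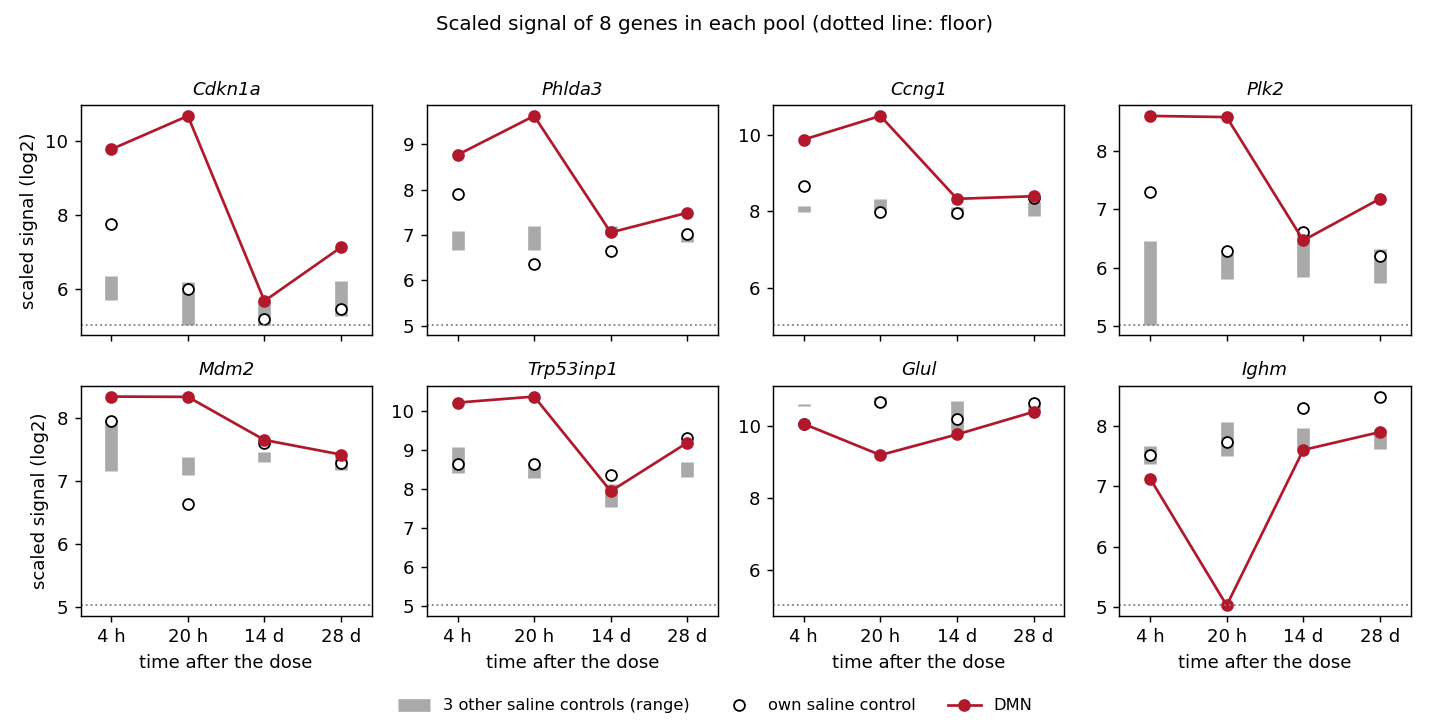
Log2 signal (vertical axes) of 8 genes at the 4 times (horizontal axes) in the DMN pool (line), its own control (open circles) and the range of the 3 other saline pools (bars), with the floor of 5.02 dotted. Cdkn1a, Phlda3, Ccng1 and Plk2 stand above all saline pools at 4 h and 20 h. Glul and Ighm lie below them at 20 h and, by smaller gaps, at 4 h and 14 days.

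The p53 list held 34 genes, of which 30 had a probe set carrying that gene symbol alone and 27 were kept. Probe sets with several symbols or none were not searched for the others. Their median log2 ratio was 0.45 at 4 h, 0.85 at 20 h, 0.11 at 14 days and 0.06 at 28 days, against medians over all genes of 0.02, 0.01, −0.06 and 0.00. Medians of the same list over the saline pairs reached 0.21, 0.08, 0.26 and 0.12 in size, so that only the medians at 4 h and 20 h went beyond them. Members higher than the own control numbered 22, 22, 17 and 15 (51.8%, 51.2%, 36.6% and 43.7% of all genes), and members lower 3, 3, 7 and 11 (40.4%, 40.6%, 57.3% and 48.3%). Outside the saline pairs (17.6%, 16.1%, 13.5% and 13.4% of all genes) and higher were 9 of 27 at 4 h (all genes 11.2%), 17 at 20 h (10.4%), 4 at 14 days (5.72%) and, after 28 days, 5 (7.76%). Outside them and lower were 0 (6.42%), 1 (5.64%), 1 (7.82%) and 3 (5.63%). At 20 h 11 of 27 were at least 2-fold higher (all genes 1.16%) and 1 at least 2-fold lower (0.995%), while at 4 h 5 were at least 2-fold higher (1.2%) and 0 lower (1.09%). No member reached 2-fold at 14 days (1.32% higher and 1.2% lower among all genes). At 28 days 1 was at least 2-fold higher (1.08%) and 2 at least 2-fold lower (0.967%).

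Cell-cycle and checkpoint members that did not pass mostly had positive ratios at 4 h and 20 h on their brightest probe sets. Plk2, a stress-induced polo-like kinase, had log2 signals of 8.60, 8.58, 6.47 and 7.18 after DMN and of 7.30, 6.28, 6.61 and 6.20 in the own controls. Its log2 ratios were 1.30, 2.30, −0.14 and 0.98, with an adjusted p of 0.690 at 20 h. Its 4 h own control was high too, and the largest saline pair at 4 h, 2.28, exceeded the 4 h ratio. Btg2, an antiproliferative factor, had 0.57, 1.10, 0.34 and −0.32. Psrc1, a spindle-associated protein, had a ratio of at least 1.58 at 4 h, its control being at the floor, of 1.60 at 20 h and of −1.06 or lower at 28 days, and was at the floor in both pools at 14 days. Its 2 probe sets disagreed at 4 h, the other giving −0.58, and at 20 h the other gave 0.62. Ckap2, a cytoskeleton-associated protein, had 0.85, 0.85, 0.44 and 0.43, and it was the 1 member outside the saline pairs at all 4 times. Gadd45a was at the floor on all 8 arrays and gave no ratio.

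The feedback and apoptosis members also had positive ratios early. Mdm2, the ubiquitin ligase that degrades p53, had 0.39, 1.70, 0.05 and 0.14 on its brighter probe set (adjusted p = 0.317 at 20 h) and 1.79, 1.98, 0.04 and −0.15 on the other. The 2 probe sets of Mdm2 were thus far apart at 4 h and close at 20 h. Trp53inp1, a p53-induced cofactor of apoptosis, had log2 signals of 10.22, 10.37, 7.95 and 9.19 after DMN and of 8.64, 8.64, 8.36 and 9.30 in the own controls. Its ratios were 1.58, 1.73, −0.41 and −0.11, with an adjusted p of 0.339 at 20 h, and the other probe set gave 1.24 at 4 h and 0.51 at 20 h. Aen, an apoptosis-enhancing nuclease, had 0.75, 1.46, 0.34 and 0.77 (adjusted p = 0.291 at 20 h), while its 2 other probe sets gave 1.93 and 0.09 at 20 h. Zmat3, an RNA-binding regulator, had 0.73, 1.67, at least 0.75 and 0.55. Mdm2 on both probe sets and Zmat3 on its single one thus had their largest ratio at 20 h, whereas the probe sets of Trp53inp1 differed in which of 4 h and 20 h was higher. Bbc3, the BH3-only protein Puma, stayed between 0.00 and 0.20 in size, and Fas, the death receptor, had −0.25, 0.53, 0.77 and, with the DMN pool at the floor, −0.62.

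Members acting in repair and metabolism had smaller ratios. Ddb2, a damage sensor of nucleotide excision repair, was at the floor in both pools until 28 days, Xpc, another, had no ratio above 0.23 in size, and Polk and Rrm2b, a translesion polymerase and a ribonucleotide reductase subunit, were higher at all 4 times by 0.04 to 0.45. Ephx1, microsomal epoxide hydrolase, had log2 ratios of 0.11, 0.92, 0.27 and 0.36. Dcxr, a carbonyl reductase, had 0.24, 0.88, 0.17 and 0.06. Sesn2, a sestrin that answers oxidative stress, had 0.34, 1.17, 0.43 and −0.67, within a wide saline spread at 20 h of 1.63. A dimmer, untested probe set of Sesn2 gave 0.69, 1.94, 0.00 and 0.44, so the 2 disagreed in sign at 28 days. The 1 p53 target at least 2-fold lower at 20 h was Cd80, a T cell costimulator, with 0.74, −1.22, −0.09 and −1.08. The 2 probe sets of Cd80 disagreed at 20 h, the other giving 0.43.

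**Figure D3:**
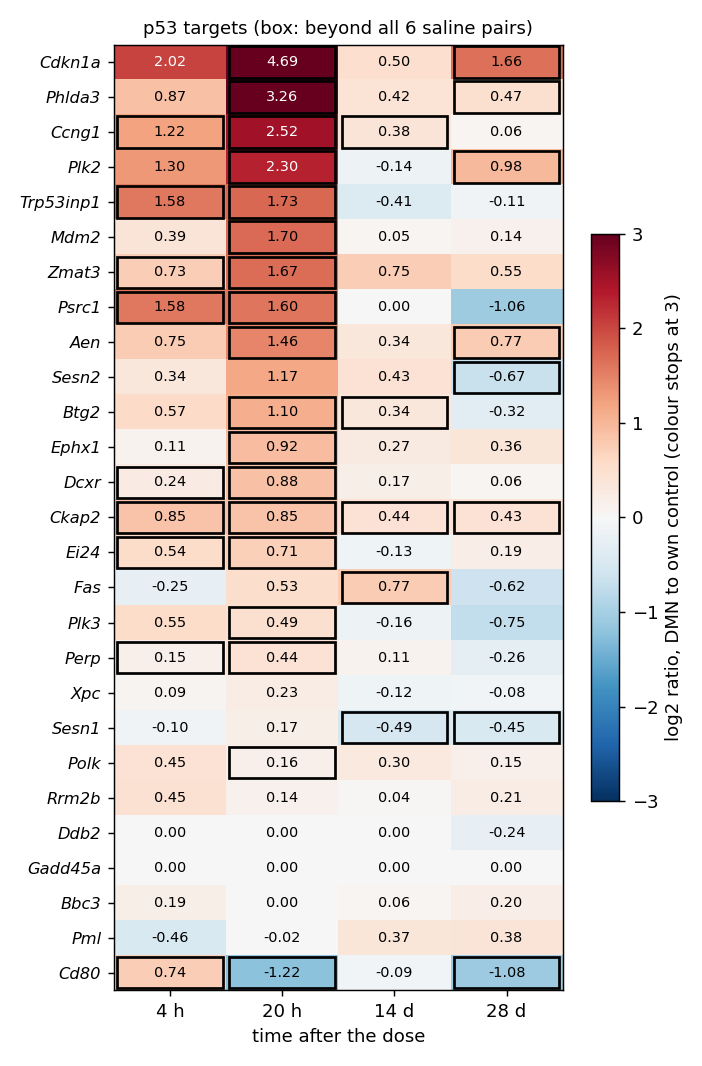
Log2 ratio of DMN to its own control (colour) for the 27 p53 targets (rows) at the 4 times (columns), boxed where the ratio was outside all 6 saline pairs. The 20 h column holds 18 boxes, 17 of them higher, and the 14-day and 28-day columns hold 5 and 8.

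Since 1 control pool set each ratio, the DMN pools were also placed against all 4 saline pools of their time. DMN lay above all 4 in 19 of 27 p53 targets at 4 h (all genes 24.7%), 19 at 20 h (27.0%), 10 at 14 days (13.3%) and, after 28 days, 12 (20.3%). The own control lay above the 3 other saline pools in 9 at 4 h (23.5% of all genes), 9 at 20 h (25.0%), 6 at 14 days (23.9%) and 7 at 28 days (30.8%). With the mean of the 4 saline pools as the reference, the numbers of probe sets called by limma were 4, 21, 7 and 2 in order of time. At 4 h these were 2 of Ccng1 (1.67, adjusted p = 0.0117, and 2.09, adjusted p = 0.0172), 1 of Mdm2 (1.84, adjusted p = 0.0391) and 1 of Arsi, a sulfatase (−2.05, adjusted p = 0.0114). The 21 at 20 h held all 6 of the calls against the own control and added Mdm2, Aen, Btg2, Trp53inp1, Ephx1, Siva1, Ddit4l, Rbmx, Exoc4 and Psmb4 as higher and Glul and Zbtb16 as lower, beside 1 probe set with no symbol here. With that reference the fall of Ccng1 from the early to the late times also passed (−1.73, adjusted p = 0.0140).

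**Figure D4:**
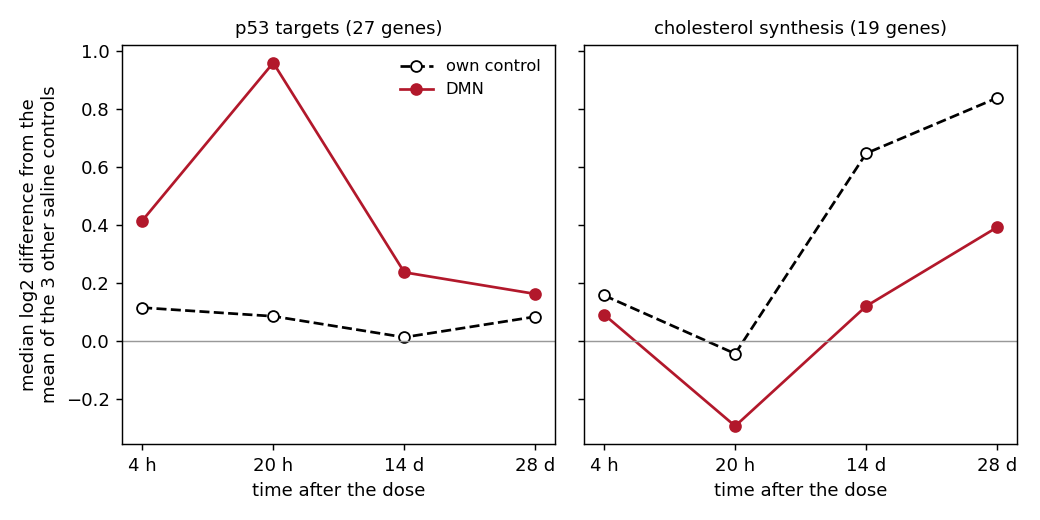
Median difference in log2 signal from the mean of the 3 other saline pools (vertical axes) for the own control and for the DMN pool at the 4 times (horizontal axes), for the p53 targets and for the genes of cholesterol synthesis. The p53 medians of DMN, 0.42, 0.96, 0.24 and 0.16, lie above those of the own control, 0.12, 0.09, 0.01 and 0.08, while for cholesterol synthesis the own control rises to 0.65 and 0.84 at the late times.

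The marker list of the study, chosen by its authors partly on these arrays and so not independent evidence, held 44 genes, of which 39 were kept. Median log2 ratios were 0.39, 0.26, −0.08 and −0.01, against reaches over the saline pairs of 0.20, 0.08, 0.23 and 0.12. Members higher were 23, 25, 15 and 15, beside 51.8%, 51.2%, 36.6% and 43.7% of all genes. At least 2-fold higher were 5, 11, 0 and 1 of them (all genes 1.2%, 1.16%, 1.32% and 1.08%), and at least 2-fold lower 2, 3, 1 and 3 (all genes 1.09%, 0.995%, 1.2% and 0.967%). The 3 called at 20 h were Cdkn1a, Phlda3 and Ccng1. Ddit4l, an inhibitor of mTOR signalling, had log2 signals of 6.85, 7.03, 5.77 and 5.92 after DMN and 5.45, 5.36, 5.26 and 5.69 in the own controls. On this brighter probe set DMN was above all saline pools at 4 h, 20 h, 14 days and 28 days. Log2 ratios of Ddit4l there were 1.40, 1.67, 0.51 and 0.23. The dimmer probe set gave 0.95, 1.70, 0.72 and −0.60, the other way at 28 days. Rcan1, an inhibitor of calcineurin, had 1.99, 1.17, −0.54 and 0.11, with a saline pair of 2.25 at 4 h. The dimmer probe set of Rcan1 gave 1.00, −0.05, 0.07 and −0.62. Tubb4b, a beta-tubulin, had 0.77, 1.71, −0.08 and −0.18 on its brightest probe set, and 4 of its 6 probe sets were higher at 20 h, the lowest at −1.60.

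Igfbp1, a hepatic IGF-binding protein that responds to fasting and stress, had log2 signals of 8.09, 8.16, 8.26 and 8.43 after DMN and of 9.87, 10.21, 8.84 and 10.46 in the own controls. Its log2 ratios of −1.78, −2.06, −0.58 and −2.02 were outside the saline pairs at 20 h alone, the largest pairs being 1.88, 1.25, 0.99 and 2.54. The own control was the highest of the 4 saline pools at 20 h and 28 days, where the others reached 9.79 and 9.51. Gadd45g, a stress sensor of the Gadd45 family, was at the floor after DMN at 4 h and 20 h, with ratios of −1.54 and −1.48 as bounds, at the floor in both pools at 14 days, and had −1.14 at 28 days. Egr1, an immediate early transcription factor, had −1.60, −1.77, −1.66 and 0.31, outside the pairs at 14 days alone.

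Glul, glutamine synthetase, which is confined to the hepatocytes next to the central vein, had log2 signals of 10.07, 9.20, 9.77 and 10.40 after DMN and of 10.07, 10.68, 10.20 and 10.65 in the own controls. The other saline pools lay at 10.58 to 10.63, 10.59 to 10.83, 9.88 to 10.70 and 10.39 to 10.60. DMN was below every saline pool at 20 h, by a gap larger than all of the saline pairs (largest 0.24), and at 4 h both DMN and its own control lay below the others. The log2 ratio at 20 h was −1.47 (SE 0.32, adjusted p = 0.376), and the second probe set gave −2.14 (adjusted p = 0.291). Both probe sets passed against the mean of the 4 saline pools (−1.51, adjusted p = 0.0156, and −2.23, adjusted p = 0.00246), and Glul was also called after quantile normalization.

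The list of pericentral genes, which includes Glul itself, leaned the same way at 20 h. Of 15 measured, 12 were lower (all genes 40.6%), with a median log2 ratio of −0.32 against a reach of 0.21 over the saline pairs, and 6 were outside the pairs and lower (all genes 5.64%). The 6 were Glul, Avpr1a, a vasopressin receptor (−0.75), Slc1a2, a glutamate transporter (−0.63), Lhpp, a phosphatase (−0.58), Cyp27a1, a sterol hydroxylase (−0.37) and Cyp1a2, a P450 of the central zone (−0.32). None of the pericentral genes but Glul was at least 2-fold lower (all genes 0.995%). Cyp2e1 itself had log2 ratios of −0.09, −0.20, −0.06 and 0.00. The median of the pericentral genes at 20 h was −0.24 against the mean of the 4 saline pools, with 12 again lower. The 13 periportal genes, their counterparts at the other end of the lobule, had a median of 0.10 at 20 h, 9 being higher and none outside the pairs.

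**Figure D5:**
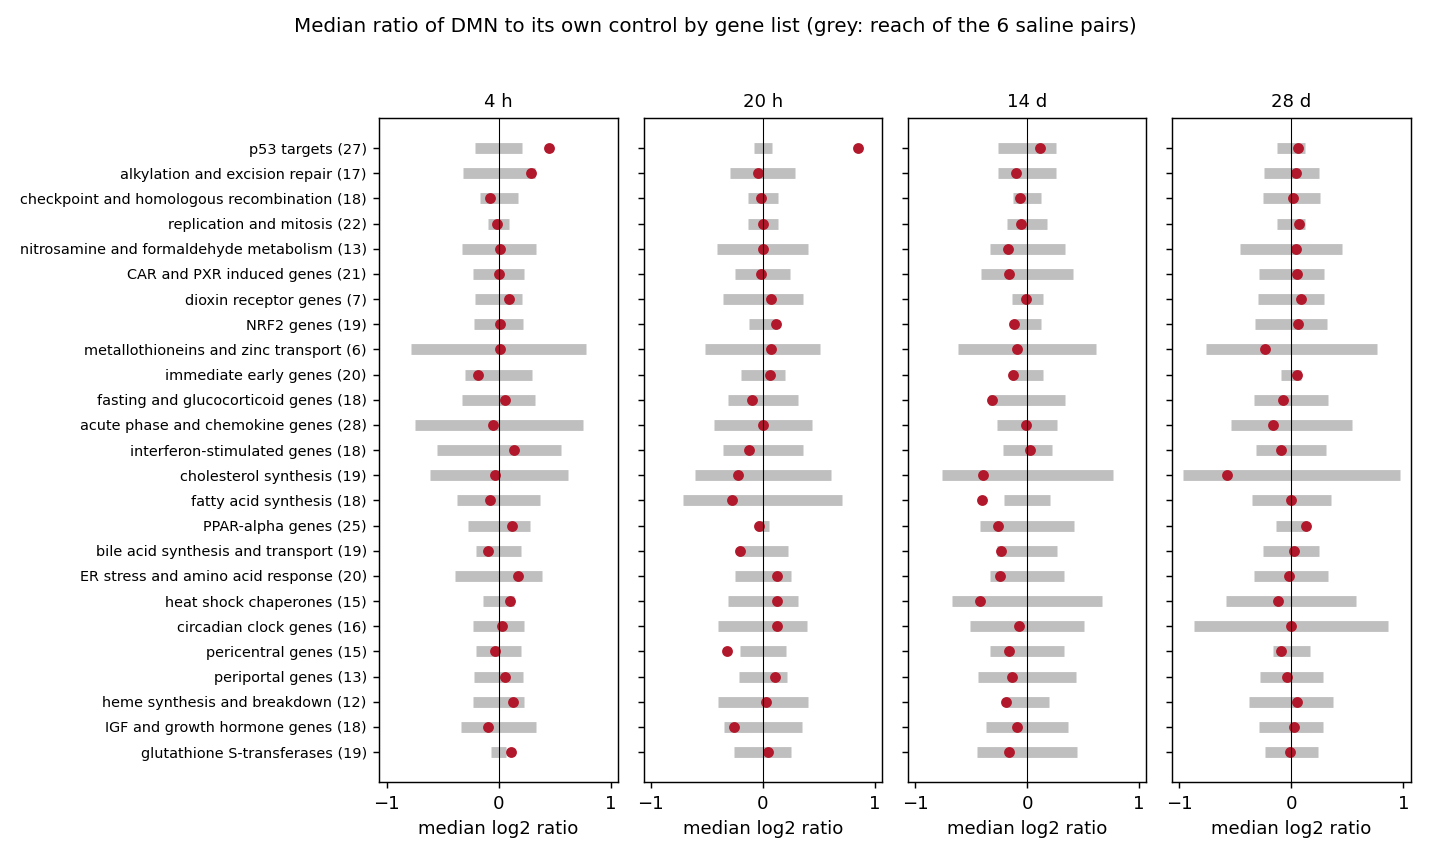
Median log2 ratio of DMN to its own control (horizontal axes, points) for 25 pathway lists (rows) at the 4 times (panels), with the reach of the same median over the 6 saline pairs as grey bars. Medians lie beyond the bars for 2 lists at 4 h, 2 at 20 h, 1 at 14 days and 0 after 28 days.

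Of the 25 pathway lists, those whose median went beyond the saline pairs were the p53 targets and the glutathione S-transferases at 4 h, the p53 targets and the pericentral genes at 20 h, and fatty acid synthesis at 14 days. The glutathione S-transferases had a median of 0.11 at 4 h with 16 of 19 higher (all genes 51.8%), which became 0.00 with 10 higher after quantile normalization and 0.02 with 11 higher after scaling at the 75th percentile. Fatty acid synthesis had medians of −0.08, −0.28, −0.41 and −0.01, and 16 of 18 members were lower at both 20 h and 14 days (all genes 40.6% and 57.3%). The 20 h median was within its saline reach of 0.71. Outside the pairs and lower at 20 h were 5 (all genes 5.64%): Acacb, acetyl-CoA carboxylase of the mitochondrial membrane (−1.08), Fads2 (−0.96) and Fads1 (−0.32), fatty acid desaturases, Acss2, acetyl-CoA synthetase (−0.89), and Me1, malic enzyme (−0.88). At 14 days Gpam alone was outside the pairs (−0.33, all genes lower 7.82%), and the 14-day median was −0.25 after quantile normalization and −0.19 against the mean of the 4 saline pools.

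Bile acid and growth hormone genes had medians within the saline pairs at 20 h. In bile acid synthesis and transport 15 of 19 were lower at 20 h (all genes 40.6%), with a median of −0.21 within the saline reach of 0.22, and 6 were outside the pairs and lower (all genes 5.64%), among them Slco1b2, a hepatic uptake transporter (−0.50), Akr1d1, a steroid reductase (−0.45), and Abcb11, the bile salt export pump (−0.41). Abcb4, the phospholipid exporter, was outside them on the other side (0.47). Among IGF and growth hormone genes 16 of 18 were lower at 20 h with a median of −0.26, within the saline reach of 0.35, and 10 were lower against the mean of the 4 saline pools.

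Genes of cholesterol synthesis were lower against the own control and not against the other saline pools at the late times. Their median log2 ratio was −0.04, −0.22, −0.39 and −0.58, and 11, 14, 18 and 18 of 19 genes were lower, yet saline pair medians of the cholesterol synthesis list reached 0.62, 0.60, 0.76 and 0.97. The own control stood above the 3 other saline pools in 16 of the 19 at 14 days and 17 at 28 days. Hmgcs1, the cytosolic HMG-CoA synthase, had log2 signals of 10.05, 9.99, 9.81 and 10.70 after DMN and of 10.18, 10.63, 10.60 and 11.78 in the own controls. The other saline pools at 28 days lay at 10.09 to 10.35, below both the DMN pool and its control. Against the mean of the 4 saline pools the list's medians were 0.07, −0.32, −0.01 and 0.09, without the fall in time.

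DNA repair genes other than p53 targets gave no common direction. The 17 genes of alkylation and excision repair had medians of 0.29, −0.05, −0.10 and 0.04, all within the saline pairs. Mgmt, the O6-methylguanine methyltransferase, had log2 signals of 6.07, 6.75, 6.55 and 6.11 after DMN against 6.21, 6.38, 6.00 and 5.84 in the own controls. Its ratios of −0.14, 0.37, 0.55 and 0.27 were outside the pairs at 20 h only. Mpg, the glycosylase for methylated purines, had −1.39, 0.92, −0.47 and 0.25. Fen1, the flap endonuclease, had 2.21 at 14 days (adjusted p = 0.137) on 1 of its 2 probe sets, while the other was at the floor in both pools. That probe set passed against the mean of the 4 saline pools (2.14, limma adjusted p = 0.00305), the DMN pool being at 8.54, its own control at 6.33 and the other saline pools at 6.00 to 6.70. Checkpoint and homologous recombination genes and replication and mitosis genes had medians between −0.08 and 0.07.

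Stress genes were mixed. NRF2 genes, which answer electrophiles, had 6 of 19 outside the pairs and higher at 20 h (10.4% of all genes), among them Srxn1, sulfiredoxin (0.87), Nqo1, a quinone reductase (0.74), and Txnrd1, thioredoxin reductase (0.51), beside Ephx1, which both lists hold. The list's median at 20 h was 0.11, within the saline reach of 0.12, and Slc7a11, the cystine transporter, was lower (−1.0). Hspa8, a constitutive heat shock chaperone, had 0.94 at 4 h and −0.70 at 14 days. Acute phase genes varied widely among saline pools. Lcn2, a secreted siderophore-binding protein, had ratios of −2.28, 2.79, 1.29 and −1.82 while its saline pairs differed by up to 6.09, 5.00, 0.55 and 2.37.

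Ighm had log2 signals of 7.13, 5.02, 7.60 and 7.90 after DMN and of 7.51, 7.73, 8.30 and 8.49 in the own controls. The other saline pools lay at 7.37 to 7.66, 7.49 to 8.07, 7.62 to 7.97 and 7.62 to 7.95. The DMN pool at 20 h was at the floor, below every saline pool, so that the log2 ratio of −2.70 (SE 0.32, adjusted p = 0.00295) is a fall of at least that size. Of the 7 probe sets of Ighm kept, this was the brightest, and the 6 others gave ratios from −0.86 to 0.23 at 20 h, none of them called. Among the 11 lymphocyte markers 5 were lower and 3 higher at 20 h, the remaining 3 being at the floor in both pools, and their summed signal was 542 after DMN, 726 in the own control and 712 to 823 in the other saline pools. Nearly all of that difference was Ighm itself. The 10 other markers summed to 509 after DMN, 515 in the own control and 506 to 589 in the other saline pools.

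Other cell types showed small shifts. Of 14 sinusoidal endothelial markers 12 were higher at 28 days, with a median of 0.28 against a saline reach of 0.18, and 4 were outside the pairs and higher (7.76% of all genes). At 20 h 10 of the 14 were lower, with a median of −0.23 within the reach of 0.24, and the DMN pool was below all 4 saline pools for 8 of them (57.1%, all genes 13.3%). The 3′ to 5′ log2 ratio of Gapdh was 0.28 in the 28-day DMN pool and −0.07 in its own control, and its part in the 28-day values was not tested. Kupffer cell markers had medians between −0.13 and 0.05 and were mixed at 20 h, with 6 of 14 higher and 8 lower. Outside the pairs at 20 h were 3 higher (10.4% of all genes) and 2 lower (5.64%). Marco had 1.41 and Csf1r, the receptor for macrophage colony-stimulating factor, −0.61 at that time. Stellate cell and matrix genes had medians between −0.17 and 0.14. Replication and mitosis genes, which mark dividing cells, held 1 member at least 2-fold higher over all 4 times, at 14 days (1.32% of all genes).

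At 28 days 5 p53 targets were outside the saline pairs and higher. Cdkn1a had a log2 ratio of 1.66 (largest saline pair 0.94), Plk2 0.98 (0.59), Aen 0.77 (0.42), Phlda3 0.47 (0.20) and Ckap2 0.43 (0.22). The 28-day ratio of Cdkn1a was a 3.17-fold difference on its brightest probe set. Its dimmer probe set gave 0.03 at 28 days, and the dimmer ones of Aen gave 0.43 and 0.27. None of these passed the test (adjusted p = 1.00), and Sesn1, Sesn2 and Cd80 were outside the pairs and lower at the same time (all genes 5.63%). The dimmer probe sets of Sesn2 and Cd80 were not lower at 28 days, with 0.44 and 0.00. At 14 days Ccng1, Btg2, Ckap2 and Fas were outside the pairs and higher and Sesn1 lower.

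Of 9278 genes with no ratio of exactly 0, 453 were higher at all 4 times (4.88%) and 571 lower (6.15%). Differences between saline sets over the same times kept a single sign in 14.2% to 21.8% of genes, more than DMN against its own control. Of the 24 p53 targets with no such ratio, 11 were higher at all 4 times and 0 lower: Aen, Ccng1, Cdkn1a, Ckap2, Dcxr, Ephx1, Mdm2, Phlda3, Polk, Rrm2b and Zmat3. Cdkn1a, Phlda3, Zmat3, Ckap2 and Aen were also among the 10 genes of the whole array with the largest smallest ratio. Outside that list the 10 held Cyp1a1, a P450 induced through the dioxin receptor, at 0.82, 0.52, 0.60 and 0.73. At 14 and 28 days Cyp1a1 was within the saline pairs, and its DMN pool was not above all 4 saline pools. Among the lower genes Acacb (−1.31, −1.08, −0.43 and −0.52) and Met, the receptor for hepatocyte growth factor (−0.51, −1.92, −1.20 and −0.48), ranked with Igfbp1 in the same way. The DMN pool was at the floor for Met at 14 days.

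The genes with the largest ratios at 20 h held more p53 targets than those of the other times. At 20 h 4 of the 8 largest higher ratios outside the saline pairs were p53 targets, and at each of the other times 0 of 8 were. Of all 1123 genes outside the pairs and higher at 20 h, 17 were p53 targets. At 4 h 10 of the 16 largest ratios in either direction had the DMN pool or its control at the floor, and at the later times 7, 7 and 10 did. On each of the 8 arrays 28.6% to 31.3% of all probe sets, kept or not, were at the floor. Ldhb, a lactate dehydrogenase subunit, had 3.28 at 14 days, with its own control at 5.64, the other saline pools at 8.02 to 8.84 and the DMN pool at 8.92. Nipal2, a magnesium transporter family member, was at the floor in the 28-day DMN pool, so that the ratio of −1.83 (adjusted p = 0.472) is a bound, with other saline pools at 6.87 to 7.32. Against the mean of the 4 saline pools it passed at 28 days (adjusted p = 0.00236) and for 28 days minus 14 days (adjusted p = 0.0391).

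The other alkylating agents of the series were given at other doses, N-ethyl-N-nitrosourea (ENU) at 150 mg/kg and dipropylnitrosamine (DPN) at 250 mg/kg, and values are set side by side without comparison. At 20 h the log2 ratio of Phlda3 was 3.26 for DMN, 1.55 for ENU and 3.29 for DPN. For Ccng1 it was 2.52, 1.77 and 2.82. Both genes were thus higher than their own control under all 3 agents. For Cdkn1a it was 4.69 for DMN and at least 3.63 for ENU and 5.67 for DPN, whose controls were at the floor. For Ighm it was −2.70 for DMN, as a bound, −1.36 for ENU and −1.74 for DPN, and for Glul −1.47, −0.43 and −2.44. At 28 days Cdkn1a stood at 1.66, 2.10 and 2.87.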

How the data were processed

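Liver RNA of 5 mice per pool was hybridised to Affymetrix mouse arrays, 1 array per group and time. The authors deposited a matrix of probe set intensity on a linear scale, the summarising software being unnamed in the labels and methods used here. The probe set names are not those of the array type the study's methods name, and the names in the files were used.

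Of 22690 probe sets, 64 controls were left out. Arrays were set to a common median (the mean over arrays), floored at the 30th percentile of all values (signal 32.5) and log2-transformed. The 18349 probe sets above the floor on at least 4 of 52 arrays were kept, and 16795 above it on at least 4 of the 12 other saline arrays were tested. Of the 22626, 20380 had 1 gene symbol, 691 several and 1555 none. The brightest kept probe set stood for a gene, giving 10755 genes. Ratios at a time were tested with limma 3.58.1 (R 4.3.3, empirical Bayes) on 8 residual and 6.14 prior degrees of freedom, the mean over times on 3 residual and 2.69 prior, all two-sided with Benjamini-Hochberg adjustment. The fit was also run on simulated data in which all pools varied independently and with the same spread. That setting has no difference between experimental sets, so it could not test the assumption that the DMN pools vary like the other saline pools. Tables and figures used Python 3.11.15, numpy 2.4.6, pandas 2.3.3 and matplotlib 3.10.9.

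Named genes were the members of the p53 and study marker lists, the 4 members of each other list with the largest ratio, the 8 genes each way with the largest ratio outside the saline pairs at each time, the 10 each way with the same sign at all times and those called, with further members named where they were outside the pairs. The members and the 36 lists were chosen with earlier results of these data known. Alternatives changed the scaling, floor, filter, reference, fold limit, variance model and the gene's probe set, and left out single pools. The number of arrays limits the precision. Some genes are not reported here.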

Additional observations from a re-analysis of the deposited data

Results flagged for a closer look

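In the 4 saline pools at 4 h, Glul in the own control of DMN stood apart, at a log2 signal of 10.07 with the nearest of the others at 10.58. The gap was 0.903 of the range of the 4 pools. The DMN pool at 4 h had 10.07 too, so the Glul ratio at that time was −0.01 although both arrays lay below the 3 other saline pools. In the 4 saline pools at 28 days, Hmgcs1 in the own control stood apart at 11.78, with the nearest at 10.35 and a gap of 0.844 of the range. These 2 came from 40 groups of 4 tested, where chance passes about 1 in 20. Their part in the ratios of other genes was not tested.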

How the results depend on the processing

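The mean over the 4 times pairs each DMN pool with its own control, and no replicate block exists within a time, where each group held 1 pool. The number of probe sets at least 2-fold from the own control (4 h, 20 h, 14 days and 28 days) was 1065, 1038, 1250 and 1059 with the floor at the 20th percentile, 214, 231, 258 and 231 with an offset in place of a floor, 240, 260, 212 and 157 against the mean of the 4 saline pools, 194, 217, 212 and 184 among probe sets above the floor in all 12 other saline arrays, and 53, 74, 86 and 61 at 3-fold. limma called 4, 21, 7 and 2 against the mean of the 4 saline pools, with 1 for late minus early and 1 for 28 days minus 14 days, and 53, 44, 55 and 22 with no filter beyond 4 of 52 arrays, with 38, 36 and 32 for 20 h minus 4 h, late minus early and 28 days minus 14 days. That filter admits probe sets at the floor in nearly all saline pools. Without the 20 h saline pool run beside ethanol and phenobarbital 1 was called at 14 days, Ldhb. The p53 median at 20 h was 0.75 after quantile normalization, 0.80 after scaling at the 75th percentile, 0.92 with the lower floor, 0.79 with the offset, 0.94 against the 4 saline pools and 0.96 against the 3 others, a reference added after seeing the data. At 14 days it was 0.29 after quantile normalization, and at 28 days 0.14 with the lower floor and 0.16 against the 3 others. Leaving out any time left the calls for the mean over times at 0, from 0 to 0. Of 235 alternative values of single genes, 227 kept their direction with no recorded change of call, and 7 were called in addition. Cdkn1a at 20 h with the lower floor was the 1 that lost its call, its ratio being 4.69 there too. The median over a gene's probe sets was among these values but was not fitted, so it had no call. Sizes at 20 h shrank there for Ighm, from −2.70 to −0.22, and Tubb4b, from 1.71 to 0.55. For others they grew, as for Glul, from −1.47 to −1.81. At least 1 probe set each of Phlda3, Ccng1 and Ighm was called at 20 h in all settings fitted with limma at that time. Signals near the floor limit every ratio of a dim gene.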
